A study of Canis lupus familiaris with 124 samples.

Results

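The 8 genes described here encode structural and fibril-binding proteins of the connective tissue matrix that fibroblasts secrete: the type I collagen chains COL1A1 (ENSCAFG00000017018) and COL1A2 (ENSCAFG00000002069), the type III collagen chain COL3A1 (ENSCAFG00000014812), the type VI collagen chains COL6A1 (ENSCAFG00000011911) and COL6A2 (ENSCAFG00000029022), the proteoglycan decorin (DCN, ENSCAFG00000006142), the matricellular protein SPARC (ENSCAFG00000017855) and the fibulin EFEMP1 (ENSCAFG00000002919). They were chosen by name out of the 32183 annotated dog genes in the files, with earlier results of these data known. All 8 were measured in every library. Their identifiers come from the genes that the study ranked at the top for doxorubicin or carboplatin resistance. That ranking was made over cell lines of the same study, so the members are not independent of these data. In the 9 canine tumor tissues these genes together held between 0.0520% and 9.81% of all counts, whereas 6 of the 8 cancer cell lines were nearly devoid of them. The prostate TCC line TCC1509 kept COL3A1, DCN and SPARC, and the bladder TCC line TCC1506 kept COL1A1, COL3A1 and a low level of SPARC. The line Adcarc0846 held a low level of COL6A1.

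The study sequenced total RNA of cell lines from dogs with prostate adenocarcinoma (PAC) or transitional cell carcinoma (TCC), together with tumor tissues, to ask how far lines resemble the tumors they came from. The 5 PAC lines were Adcarc0846 (dog 2, a German Rough-haired Pointer aged 6 years, passages 447 to 448), Adcarc1508 (dog 3, a mixed breed aged 11 years, passages 97 to 106) and 3 lines of dog 4, a Dobermann aged 6 years: Adcarc1511.1 from the primary tumor (passages 88 to 95) and the metastasis lines Metadcarc1511.2 (passages 68 to 79) and Metadcarc1511.3 (passages 79 to 87). The 3 TCC lines were TCC0840 (dog 5, a Pitbull Terrier aged 10 years, passages 350 to 352), TCC1506 (dog 7, a Labrador Retriever aged 10 years, from the bladder, passages 98 to 107) and TCC1509 (dog 6, a Bolonka Zwetna aged 9 years, from the prostate, passages 77 to 85). The 3 PAC tissues were the primary tumor P2 (dog 2) and the metastases Ln4.2 and Ln4.3 (dog 4). Tissues named Ln are lymph node metastases. The 6 TCC tissues were the prostate tumor P6.1 and the metastasis Ln6.2 (both of dog 6), and the bladder tumors B7 (dog 7), B8 (dog 8, a Cairn Terrier aged 11 years), B9 (dog 9, a Miniature Pinscher aged 8 years) and B10 (dog 10, a German Shepherd aged 8 years). Labels name an original tissue for 5 lines: Adcarc0846 came from P2, Metadcarc1511.2 from Ln4.2, Metadcarc1511.3 from Ln4.3, TCC1506 from B7 and TCC1509 from P6.1. The dogs received no experimental treatment named in the labels, and all lines were grown in flasks in Medium 199 with fetal calf serum and antibiotics. RNA of the lines and of the tissues was extracted with different kits, so a kit effect and the difference between line and tissue cannot be told apart.

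Collagens of types I and III form the fibrils of connective tissue, and type VI collagen forms a fine beaded network around cells and fibrils. Decorin and SPARC bind fibrillar collagen and influence how fibrils assemble, and EFEMP1 (fibulin-3) is a glycoprotein associated with basement membranes and elastic fibers. In carcinomas these genes are known mainly as products of the fibroblasts of the tumor stroma, and they are used as marks of that compartment in bulk RNA. Carcinoma cells can also transcribe some of them after a shift toward a mesenchymal state.

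Each tissue was sequenced as 1 library, TCC0840 and Adcarc0846 as 2 and the remaining 6 lines as 3. Libraries of a line came from separate flasks of the same line, at different passages except for 2 libraries of TCC1509 at passage 85. Their spread is therefore that between cultures and not between tumors. Counts per pooled line ranged from 33500674 to 55488800, and those per tissue from 11920463 to 18086895. Levels are given as CPM, the expected count of a gene scaled to the same total in every sample, and as CPM per kb of effective transcript length wherever genes are set against each other. At these depths, a count of 0 in a pooled line allowed a level of at most 0.0541 to 0.0896 CPM, which covers counting error only, as do all intervals below. In a bulk sample, fewer fibroblasts and less matrix RNA per cell cannot be told apart.

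Type I collagen was present at high levels in all tissues and was close to absent in 7 of the 8 lines. COL1A1 ranged in the 9 tissues from 130 CPM (B10) over a median of 616 CPM to 36002 CPM (P2). In the 8 lines it ranged from 0.0193 CPM (Metadcarc1511.2, 1 count) over a median of 0.111 CPM to 34.1 CPM (TCC1506). The bladder line TCC1506 stood far above the other 7 lines, of which TCC1509 was the highest at 0.250 CPM, but it remained below every tissue. COL1A2, the partner chain of COL1A1 in the type I trimer, ranged from 110 CPM (B7) over a median of 416 CPM to 23561 CPM (P2) in the tissues. In the lines it ranged from 0.0360 CPM (Adcarc1508) over a median of 0.0782 CPM to 0.269 CPM (TCC0840). No line, TCC1506 included, came near a tissue for COL1A2: the lowest tissue was 410-fold above the highest line.

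COL3A1, whose chains form type III collagen on their own, was the member with the widest range among the lines. Tissue levels ran from 161 CPM (B7) over a median of 749 CPM to 24996 CPM (P2). Among the lines, Adcarc1511.1 and Metadcarc1511.2 had 0 counts, the median was 0.419 CPM and the highest level was 577 CPM in TCC1509. TCC1509 lay within the range of the tissues, above B7, B8 and B10, while the other 7 lines lay below every tissue. TCC1506 followed at 57.7 CPM, then Metadcarc1511.3 at 1.10 CPM and TCC0840 at 0.627 CPM.

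The type VI chains COL6A1 and COL6A2 lay far below the tissues in all lines. COL6A1 ranged from 29.0 CPM (B7) over a median of 156 CPM to 3811 CPM (P2) in the tissues, and from 0.0192 CPM (TCC1509) over a median of 0.0672 CPM to 1.74 CPM (Adcarc0846) in the lines. COL6A2, the chain encoded next to it, ranged from 13.1 CPM (B7) over a median of 115 CPM to 2079 CPM (P2) in the tissues, and the 8 lines held 6 counts of it in all, with 4 lines at 0 and the highest line at 0.0385 CPM (TCC1509). Lines and tissues did not overlap for either chain, and the lines that kept other collagens did not keep type VI. The 66 counts of COL6A1 in Adcarc0846 came without a single count of COL6A2. Both of its libraries carried COL6A1, with 30 and 36 counts.

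DCN was the member with the sharpest contrast between 1 line and the rest. In the tissues it ranged from 3.91 CPM (B7) over a median of 90.2 CPM to 3191 CPM (P2). Apart from TCC1509, the lines held 5 counts of DCN together, with Adcarc0846, Adcarc1511.1, Metadcarc1511.2 and Metadcarc1511.3 at 0. TCC1509 reached 419 CPM from 21768 counts and exceeded 5 of the 9 tissues.

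SPARC and EFEMP1 showed no overlap between lines and tissues. SPARC, a calcium-binding glycoprotein that attaches to collagen, ranged from 39.2 CPM (B7) over a median of 510 CPM to 3307 CPM (P2) in the tissues. In the lines it ran from 0 counts (Metadcarc1511.2 and Metadcarc1511.3) over a median of 0.0233 CPM to 36.3 CPM (TCC1509), so that TCC1509 ended just short of the lowest tissue, with TCC1506 next at 1.47 CPM. EFEMP1 ranged from 0.257 CPM (B7) over a median of 31.2 CPM to 1459 CPM (Ln4.2) in the tissues. All 8 lines together held 3 counts of EFEMP1 among 385945000, all of them in TCC1506. The median tissue level of EFEMP1 was 4015 times the level of the summed lines, with a 95% Poisson interval of 1374 to 19468 that covers the counts of the lines alone.

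Lines were tested against tissues with edgeR's quasi-likelihood F test across 15287 genes, with the average of the line effects in PAC and TCC as the contrast and genes were called where the adjusted p did not exceed 0.01 and levels differed at least 2-fold. All 8 members were called lower in the lines, where 12.5% of all genes tested were. The log2 change was -13.00 ± 2.19 (SE) for COL1A1 (adjusted p = 0.000475), -15.78 ± 1.90 for COL1A2 (3.81e-05), -9.76 ± 1.97 for COL3A1 (0.00171) and -12.72 ± 1.76 for COL6A1 (0.000104). It was -14.96 ± 1.55 for COL6A2 (edgeR adjusted p = 1.32e-05), -9.52 ± 2.10 for DCN (0.00323) and -11.45 ± 1.70 for SPARC (0.000176). EFEMP1 was called as well (edgeR adjusted p = 0.000655), but its fitted change has no meaning as a size because the 5 PAC lines had 0 counts. The fitted sizes of COL6A2, DCN and SPARC rest on 1, 2 and 3 counts in the 5 PAC lines and depend on the small count that the fit adds. Without tumor type in the model, COL3A1 (-6.53, edgeR adjusted p = 0.0318) and DCN (-4.20, 0.165) lost their call. The median log2 change over the members was -12.86, against -0.01 over all genes tested.

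For 6 of the 8 members every line lay below every tissue in CPM, a pattern that 5.23% of all genes tested showed. The exceptions were COL3A1 and DCN, both through TCC1509 alone. Without TCC1509 the groups separated for all 8 members, a pattern that 5.80% of all genes showed. TCC1509 and TCC1506 also set much of the size of the change. Without TCC1509 the log2 change was -15.39 for DCN, -11.17 for COL3A1 and -13.42 for SPARC, and without TCC1506 it was -16.06 for COL1A1. Without the tissue Ln6.2 the log2 change was smaller, -11.17 for COL1A1 and -13.99 for COL1A2, and all 8 members were still called.

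The call for DCN was not stable: it was lost without TCC0840 (edgeR adjusted p = 0.0112) and without Adcarc1508 (0.0136). With the dog as a block, which sets each line against tissues of its own dog, 5 of the 8 members were called, and COL3A1 (edgeR adjusted p = 0.0775), DCN (0.0373) and SPARC (0.0179) were not. The running numbers in the library titles fall into series, and the series that holds all tissues also holds the libraries of Adcarc0846 and TCC0840 and 2 of the 3 libraries of TCC1506. Within that series, with 3 lines against 9 tissues, the log2 changes of the members lay between -15.99 and -11.37 with edgeR adjusted p-values of 0.0198 to 0.0499. None of the 8 passed the threshold of 0.01 there, and neither did any of the other genes.

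Other genes of the matrix were taken from lists of collagens, matrix glycoproteins and proteoglycans, processing enzymes and receptors. These lists, like the marker lists below, held only genes that the study ranked at the top for doxorubicin or carboplatin resistance. That ranking was made over cell lines of the same study, so the counts below do not cover whole gene families. Of 10 other collagen genes, 8 were called lower in the lines and none higher, with a median log2 change of -6.88. COL6A5, a further type VI chain, COL11A1, a minor fibrillar chain, and COL16A1 changed the most, with 5, 6 and 2 lines at 0 counts. COL10A1 and COL5A2 were not called, and COL5A2, a type V chain that copolymerizes with type I collagen, missed the threshold with a log2 change of -2.84 ± 0.76 (edgeR adjusted p = 0.0101). Of 18 other matrix glycoproteins and proteoglycans, 14 were lower and none higher, with a median of -6.24. Among them were THBS4, PXDN and elastin (ELN), the last with 2 counts in 1 line and none in the other 7.

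Enzymes and chaperones that process collagen had a median log2 change of -1.33 over 13 genes, of which 4 were called lower and none higher. The 3 with the largest change were TLL1, a procollagen proteinase (-7.93 ± 1.40, edgeR adjusted p = 0.000659), PCOLCE, an enhancer of procollagen cleavage (-6.22 ± 1.10, 0.000655), and the lysyl oxidase family member LOXL2 (-5.40 ± 1.03, 0.00119). Of 3 collagen breakdown enzymes, MMP2 and the cathepsin CTSK fell. Of 5 laminin chains, LAMA4 fell. Of 10 integrins, the collagen receptor subunit ITGA11 fell and the laminin receptor subunit ITGA3 rose by 1.80 ± 0.46 (edgeR adjusted p = 0.00771).

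Markers of other cell types moved along with the members, and their part in the loss was not tested. Of 9 leukocyte markers 8 were lower in the lines and of 6 endothelial markers 5 were. The leukocyte sum was 0.396 to 17.02 CPM in the lines and 90.5 to 2813 CPM in the tissues, and C1QB was at 0 counts in all 8 lines. The highest line, TCC0840, held 16.96 CPM of ITGB2. The endothelial sum was 5.34 to 82.7 CPM in the lines and 78.8 to 1767 CPM in the tissues. Most of it in the lines was FLT4, at 3.61 to 81.9 CPM against 12.6 to 108 CPM in the tissues. KDR, TEK, CD93 and ICAM2 were at most 0.232 CPM in any line. The smooth muscle actin gene ACTA2 fell by 7.11 on the log2 scale, from 12.7 to 874 CPM in the tissues to 0.0385 to 13.4 CPM in the lines. The 7 epithelial markers summed to 589 to 2870 CPM in the lines and 188 to 3754 CPM in the tissues, 1 of them, LAD1, was called higher in the lines and none lower.

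The 5 lines with an original tissue were then set against it directly, where the ratio is a description because each tissue has 1 library. In the PAC lines the members were nearly gone. No member of Adcarc0846, Metadcarc1511.2 or Metadcarc1511.3 reached 1% of its own tissue. Adcarc0846 had 3, Metadcarc1511.2 had 5 and Metadcarc1511.3 had 4 of the 8 members at 0 counts. The highest shares in these pairs were 0.0469% for COL3A1 in Metadcarc1511.3 against Ln4.3 and 0.0456% for COL6A1 in Adcarc0846 against P2.

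TCC1509 held 77.0% of the COL3A1 level of P6.1, 31.8% of its DCN level and 5.81% of its SPARC level. The remaining collagen chains of the same tissue had all but vanished: COL1A1 was at 0.0406%, COL1A2 at 0.0278% (95% interval 0.0102 to 0.0604), COL6A1 at 0.0123% and COL6A2 at 0.0334%. EFEMP1 had 0 counts, which allows up to 0.665% of the level in P6.1. The line thus split the collagens of its tissue, with the type III chain near the tissue level and the type I and type VI chains far below it.

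TCC1506 held 35.9% of the COL3A1 level of B7, 20.9% of its COL1A1 level and 3.73% of its SPARC level, and no member was at 0 counts. EFEMP1 stood at 21.98%, but it rests on 3 counts in the line and 4 in the tissue, and the exact 95% interval over both counts, from 3.22% to 129.9%, includes equal levels. COL1A2 was at 0.0511%, COL6A1 at 0.259%, COL6A2 at 0.287% and DCN at 0.480%. B7 was the lowest tissue for 7 of the 8 members, so a given share of B7 is a smaller level than the same share of P6.1. The line thus kept the COL1A1 chain of type I collagen and not its COL1A2 partner.

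**Figure D1:**
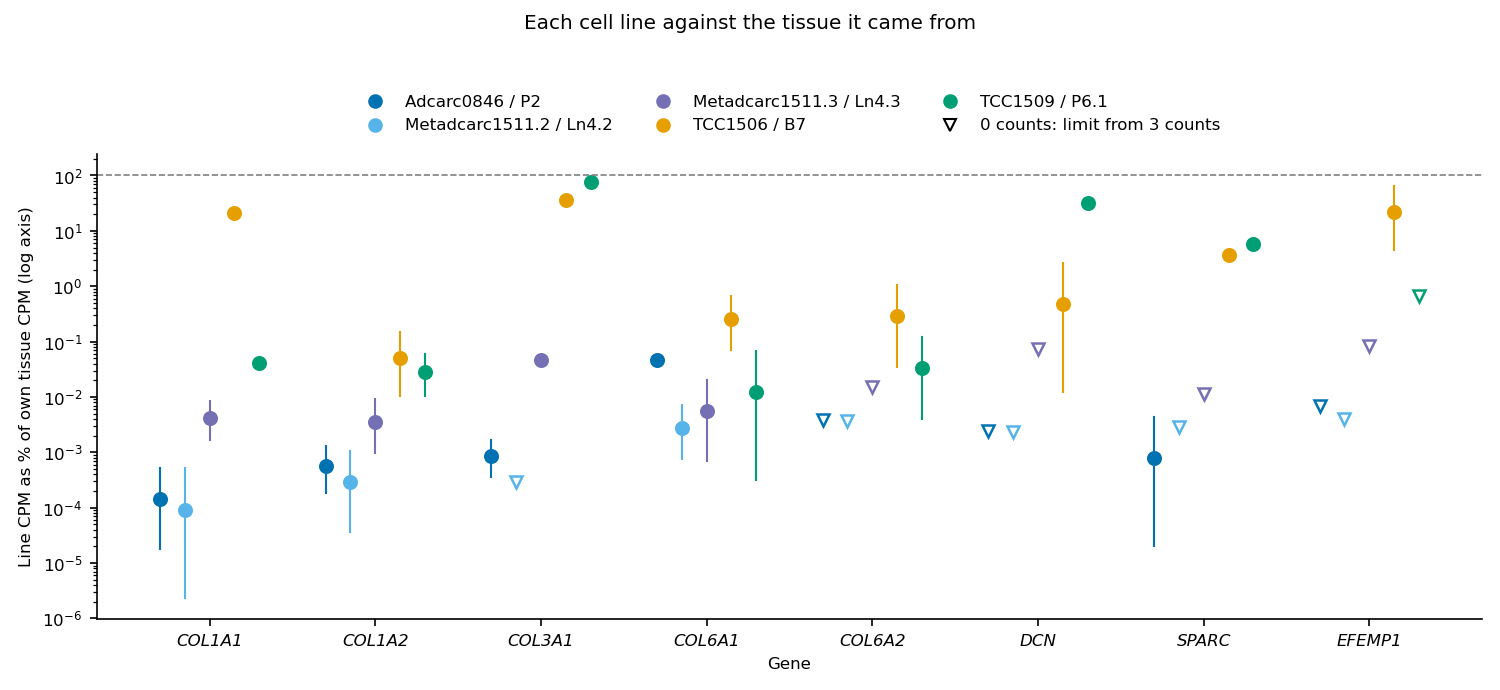
Level of each member in a cell line as a percentage of the CPM in the tissue it came from, on a log axis, for 5 pairs, with bars for 95% Poisson intervals of the line's counts alone where it had 10 counts or fewer, open triangles for the limit that 0 counts allow, and a dashed rule at 100%. TCC1509 lies between 5.81% and 77.0% for COL3A1, DCN and SPARC and below 0.1% for the collagens of types I and VI, while the 3 PAC pairs stay below 0.1% for all members.

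The study paired the lines of 1 tumor type with their tissues. In the PAC metastasis pairs (Metadcarc1511.2 with Ln4.2 and Metadcarc1511.3 with Ln4.3, pair as a block), edgeR called 7 of the 8 members lower, where 9.56% of 15123 genes tested were called lower. COL3A1 was not called (-14.02 ± 2.93, edgeR adjusted p = 0.0332), and the 58 counts in Metadcarc1511.3 against 0 in Metadcarc1511.2 set its spread. DESeq2 called all 8. Without the pair as a block edgeR called 5, and DCN (edgeR adjusted p = 0.0354) and EFEMP1 (0.0312) lost their call. In the TCC pairs (TCC1509 with P6.1 and TCC1506 with B7), edgeR called 0 of the 7 members tested (EFEMP1 did not pass the filter) and 0% of 13599 genes. At an unadjusted p under 0.05 there were 4 members (COL1A2, COL6A1, COL6A2 and SPARC) and 845 genes. DESeq2 called 5 members there, the same 4 and COL1A1. COL3A1 changed by -0.93 ± 0.54 in these pairs (edgeR adjusted p = 0.905) and COL1A2 by -11.37 ± 0.77 (0.517).

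Between the 3 TCC and the 5 PAC lines, edgeR called 0 of the 8 members, where 0.00654% of genes were called. The log2 difference of TCC from PAC lines was 9.60 ± 1.94 for SPARC (edgeR adjusted p = 0.0719), 9.52 ± 2.26 for COL3A1 (0.0957), 13.53 for DCN (0.0957) and 7.02 ± 2.07 for COL1A1 (0.157). These 4 members had an unadjusted p under 0.05, as had 1580 genes, and DESeq2 called all 4. Single lines set these sizes, and those of DCN and SPARC also rest on 2 and 3 counts in the PAC lines. Without TCC1509 the log2 difference was 1.74 for DCN (edgeR adjusted p = 0.906), 5.64 for SPARC (0.126) and 6.69 for COL3A1 (0.148), and without TCC1506 it was 0.98 for COL1A1 (edgeR adjusted p = 1.00). The 3 TCC lines did not behave alike: TCC0840 was at 0.0896 CPM for COL1A1, 0.627 CPM for COL3A1, 0.0597 CPM for DCN and 0.119 CPM for SPARC, close to the PAC lines. The change from tissue to line was not called as different between the tumor types for any of the 8 members by edgeR (0.00654% of genes called). There, 4 members and 1743 genes had an unadjusted p under 0.05, and DESeq2 called the same 4 as between the lines.

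The lines were then compared with each other over their 22 libraries, each line against the mean of the other 7 on the log scale. The filter on low counts left 4 of the 8 members in this test, COL1A1, COL3A1, DCN and SPARC. These 4 passed through TCC1506 and TCC1509, so calls in these lines follow in part from the filter. COL1A2, COL6A1, COL6A2 and EFEMP1 averaged under 10 counts per library and were not tested. A line with 0 counts could not be called lower by edgeR.

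In TCC1509, COL3A1, DCN and SPARC were called higher than in the other lines. Of 13128 genes tested, 10.7% were called higher there, but members passed the filter on low counts mainly through the line where they are high, so nothing is read from their number against that share. COL3A1 was at 184, 715 and 834 CPM in its 3 libraries (passages 77, 85 and 85), a mean of 578 ± 346 CPM (SD, n = 3). DCN was at 523, 245 and 476 CPM (415 ± 149) and SPARC at 32.4, 37.5 and 38.9 CPM (36.3 ± 3.40). For each of these genes the 3 libraries of TCC1509 lay above all 19 libraries of the other lines, with SPARC the tightest and COL3A1 spread over more than 4-fold. The genes are named because they were called higher in TCC1509, and other genes were not counted for this pattern. Nothing is therefore read from the separation. The log2 difference from the other lines was 11.22 ± 0.45 for COL3A1 (edgeR adjusted p = 3.59e-11), 14.73 ± 0.35 for DCN (3.75e-12) and 9.75 ± 0.30 for SPARC (6.71e-13). Among the other lines, 4 had 0 counts of DCN, and 2 each had 0 counts of COL3A1 and SPARC. The sizes and their SE therefore depend on the small count that the fit adds. COL1A1 did not differ beyond its error in TCC1509 (0.41 ± 0.74, edgeR adjusted p = 0.709), with 4, 5 and 4 counts in its libraries.

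In TCC1506, COL1A1, COL3A1 and SPARC were called higher. There 13.9% of genes were called higher, and for the same reason nothing is read from the number of members. COL1A1 was at 10.3, 20.8 and 66.8 CPM in libraries of passages 98, 106 and 107 (32.6 ± 30.1 CPM), and its SD was nearly as large as its mean. COL3A1 was at 40.5, 42.0 and 86.9 CPM (56.5 ± 26.4) and SPARC at 1.53, 0.944 and 1.87 CPM (1.45 ± 0.469). The log2 difference was 8.52 ± 0.47 for COL1A1 (edgeR adjusted p = 1.87e-11), 7.49 ± 0.46 for COL3A1 (3.13e-09) and 4.55 ± 0.41 for SPARC (1.86e-07). The sizes for COL3A1 and SPARC depend on the small count that the fit adds, as 2 other lines had 0 counts of each. The third library carried most of the COL1A1 counts, 1285 of 1813. Leaving out 1 of the 3 replicate numbers in all lines moved the log2 difference of COL1A1 between 7.28 and 9.65, and the call held each time.

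None of the 4 tested members was called higher in the other 6 lines. The shares of genes called higher there were 7.57% (Adcarc0846), 8.14% (Adcarc1508), 10.0% (Adcarc1511.1), 9.36% (Metadcarc1511.2), 7.93% (Metadcarc1511.3) and 10.2% (TCC0840). None of the 4 was called lower by edgeR either, but lines with 0 counts could not be, so nothing is read from that. At an unadjusted p under 0.05 there was 1 member among these lines, COL1A1 in Metadcarc1511.2, which was lower. DESeq2 called COL3A1 lower in Adcarc1508, Adcarc1511.1 and Metadcarc1511.2. Without the filter on low counts, edgeR also called COL6A1 higher in Adcarc0846 by 4.802 on the log2 scale (edgeR adjusted p = 8.75e-09), where it was at 1.52 and 1.97 CPM. COL3A1 in Metadcarc1511.3, at 0.852, 1.67 and 0.770 CPM in its 3 libraries, did not pass (0.91 ± 0.67, edgeR adjusted p = 0.347).

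**Figure D2:**
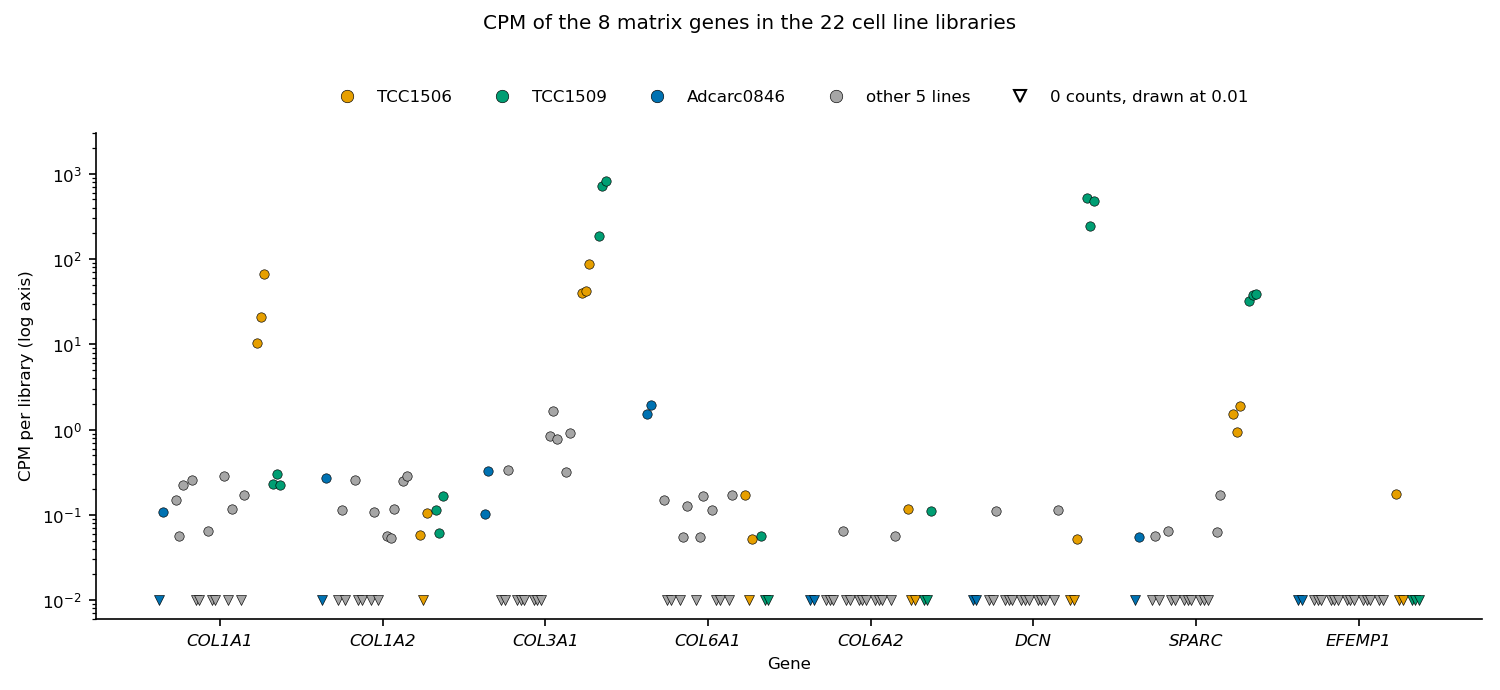
CPM of the 8 members on a log axis in each of the 22 cell line libraries, with TCC1506 in orange, TCC1509 in green, Adcarc0846 in blue, the other 5 lines in grey, and triangles for 0 counts. All 3 libraries of TCC1509 lie above 100 CPM for COL3A1 and DCN, all 3 of TCC1506 lie above 10 CPM for COL1A1 and COL3A1, and COL6A2 and EFEMP1 have almost no counts in any library.

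TCC1509 differed from the other lines in further matrix genes. Of 11 glycoproteins and proteoglycans tested, 5 were called higher and 3 lower. Some of these genes passed the filter on low counts mainly through a line where they are high, so nothing is read from these numbers. The small proteoglycan biglycan (BGN), a relative of decorin, was at 73.4 ± 23.4 CPM (SD, n = 3) and at most 1.62 CPM on average in any other line (log2 difference 8.26 ± 0.25, edgeR adjusted p = 1.24e-14). ABI3BP, an extracellular protein, was at 143 ± 107 CPM (12.03 ± 0.46, edgeR adjusted p = 7.64e-10), while 4 lines had 0 counts and its own tissue P6.1 was at 0.664 CPM. The sizes for BGN and ABI3BP, with 1 and 4 lines at 0 counts, depend on the small count that the fit adds. FBLN2, LTBP3 and CCDC80 were the other 3 called higher. CCDC80 at 68.4 ± 27.6 CPM was above the log mean of the other lines but not above the 3 lines of dog 4, which averaged 80.8 to 153 CPM. FBLN1, FBLN5 and MFAP2 were lower than the log mean of the other lines, and of these only FBLN5 was at its lowest in TCC1509.

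Of 6 other collagens tested in TCC1509, COL16A1 was higher and COL4A1 and COL5A2 were lower than the log mean of the other lines. COL16A1 was at 0.462 CPM in TCC1509 against 4.24 CPM in TCC1506. COL4A1 was at 0.404 CPM, above the 0.0263 CPM of Adcarc0846. Of 11 processing enzymes, the collagen chaperone SERPINH1 (1.36 ± 0.14) and the lysyl hydroxylase PLOD2 (1.53 ± 0.31) were higher and LOXL2 was lower. TCC1506 was at a higher level of SERPINH1 and a lower level of LOXL2 than TCC1509. The matrix metalloproteinase MMP3 was higher by 5.88 ± 0.64, a size that depends on the small count that the fit adds, as 2 lines had 0 counts. Of 9 integrins, the fibronectin receptor subunit ITGA5 rose the most, to 1139 ± 184 CPM from 2.61 to 58.6 CPM in the other lines (6.89 ± 0.19, edgeR adjusted p = 2.05e-15). ITGAV, ITGB1 and ITGB5 were higher as well and the epithelial subunit ITGB6 was lower. Of 5 laminin chains, LAMB1 was higher and the epithelial laminin-332 chains LAMA3 and LAMB3 were lower.

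All 7 epithelial markers were lower in TCC1509 than in the other lines. EPCAM averaged 26.5 ± 5.07 CPM against 146 to 893 CPM in the others, and the tight junction gene CLDN7 averaged 0.151 ± 0.113 CPM against 77.7 to 264 CPM. Their summed level was 589 CPM, the lowest of the lines. Of the markers of other cells, ACTA2 was at 0.0385 CPM, the leukocyte markers C1QB and C1QC were at 0 counts and 6 of the 9 leukocyte markers had 3 counts or fewer. The leukocyte markers LAPTM5 and PLEK were nevertheless called higher than the log mean of the other lines, and the leukocyte sum was 6.04 CPM. PLEK was at 1.10 CPM in TCC1509 but at 3.41 CPM in Metadcarc1511.3. LAPTM5 was at 4.06 CPM and was also called higher in TCC1506, at 0.808 CPM. Whether the matrix genes and the low epithelial genes belong to the same cells of the line cannot be read from pooled RNA.

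Of 6 other collagens tested in TCC1506, COL5A3 (8.24 ± 0.46), COL16A1 (6.04 ± 0.47) and COL4A1 (2.60 ± 0.35) were called higher and COL5A2 was lower. COL5A3, COL16A1 and the glycoprotein LTBP2 passed the filter on low counts mainly through TCC1506, so their calls follow in part from the filter. The sizes for COL5A3 and COL16A1, with 1 and 2 lines at 0 counts, also depend on the small count that the fit adds. COL5A3 was at 15.4 ± 16.4 CPM, from 4.47 to 34.2 CPM across its libraries, and averaged at most 0.632 CPM in the other lines. COL4A1 at 41.0 ± 24.4 CPM was below the 4 PAC lines Adcarc1508, Adcarc1511.1, Metadcarc1511.2 and Metadcarc1511.3, which averaged 63.2 to 121 CPM. Of 11 glycoproteins and proteoglycans, ABI3BP, LTBP2, CCDC80, BGN and FBLN5 were higher than the log mean of the other lines and FBLN1 and MFAP2 lower. Of those called higher, LTBP2 averaged 8.40 CPM over the libraries and was highest in TCC1506. The other 4 were higher in at least 1 other line, with ABI3BP at 5.42 CPM against 143 CPM in TCC1509, BGN at 1.52 against 73.4 CPM in TCC1509, CCDC80 at 30.6 against 68.4 to 153 CPM in 4 lines, and FBLN5 at 25.9 against 26.6 to 38.9 CPM in 3 lines. Of 11 enzymes, LOXL4, LOX and SERPINH1 were higher and LOXL2 and LOXL3 lower, with LOX at 79.2 CPM below the 189 to 246 CPM of the 3 lines of dog 4, and LAMA3 and LAMB2 were higher among 5 laminin chains. ITGA5 was higher by 2.09 ± 0.20, far below its level in TCC1509, and ITGAV lower among 9 integrins. ACTA2 was at 13.1 ± 7.77 CPM (5.81 ± 0.36, edgeR adjusted p = 7.92e-11) and at 12.7 CPM in its own tissue B7. The epithelial sum of 2870 CPM was the highest of the lines, with EPCAM called lower and PKP3 and JUP called higher, and the leukocyte sum was 0.921 CPM.

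COL5A2 lies next to COL3A1, with no protein-coding gene between them in the RefSeq annotation of the UU_Cfam_GSD_1.0 assembly, and both encode fibrillar collagen chains. In the lines the neighbors went separate ways. The 5 PAC lines carried COL5A2 at 368 CPM (Adcarc1508), 707 CPM (Adcarc0846), 758 CPM (Metadcarc1511.3), 1350 CPM (Metadcarc1511.2) and 1447 CPM (Adcarc1511.1), within the 107 to 2331 CPM of the tissues. Adcarc1511.1 and Metadcarc1511.2, the highest of them, had 0 counts of COL3A1. The TCC lines were at 33.8 CPM (TCC0840), 15.9 CPM (TCC1506) and 1.56 CPM (TCC1509), all below the lowest tissue, and TCC1509 combined the lowest COL5A2 with the highest COL3A1. The difference in COL5A2 between TCC and PAC lines was not called (-5.83, edgeR adjusted p = 0.0957), while TCC1509 (-7.58 ± 0.50, 2.30e-10) and TCC1506 (-3.69 ± 0.39, 1.60e-07) were called lower against the mean of the other lines.

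**Figure D3:**
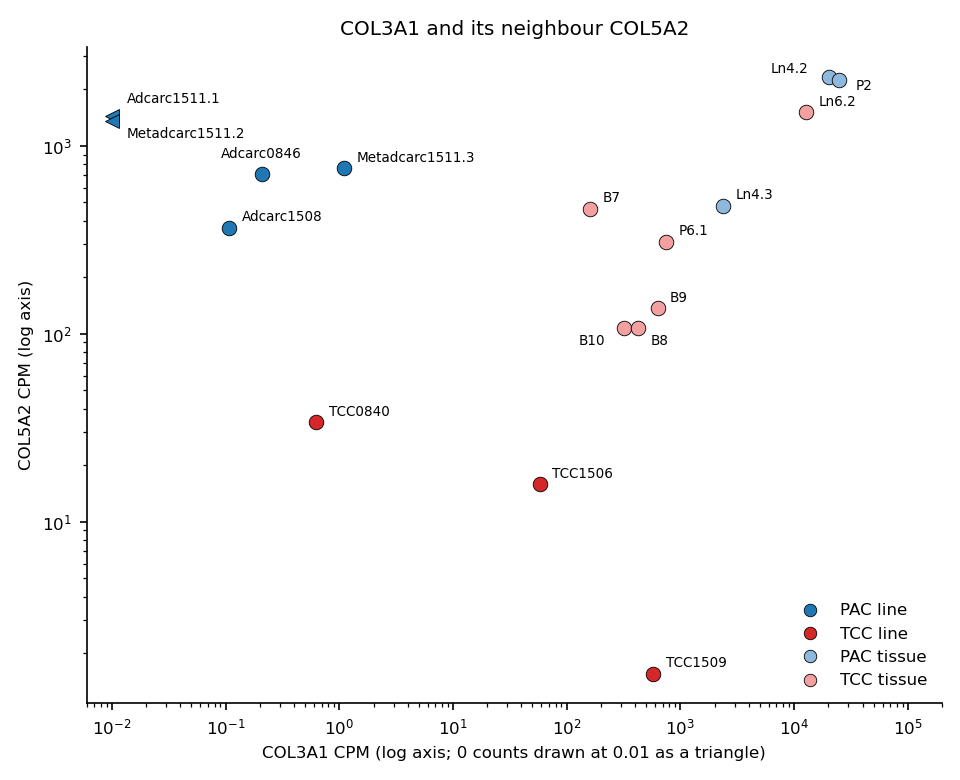
COL5A2 CPM against COL3A1 CPM, both on log axes, in the 8 cell lines and 9 tissues, with triangles at the left edge for lines with 0 counts of COL3A1. The 5 PAC lines lie at tissue-like COL5A2 levels of 368 to 1447 CPM with at most 1.10 CPM of COL3A1, whereas TCC1509 lies at the opposite corner with 1.56 CPM of COL5A2 and 577 CPM of COL3A1.

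Within the tissues the members spanned a wide range. Their summed share of all counts was 9.81% in P2, 6.46% in Ln4.2, 4.91% in Ln6.2, 0.946% in Ln4.3 and 0.400% in P6.1. It was lowest in the bladder tumors, at 0.163% in B9, 0.118% in B8, 0.0946% in B10 and 0.0520% in B7. The PAC tissues lay above the TCC tissues apart from Ln6.2, the metastasis of dog 6, which lay above the primary tumor P6.1 of the same dog for COL1A1 (16667 against 616 CPM) but not for DCN (1043 against 1318 CPM).

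No member was called between 6 TCC and 3 PAC tissues by edgeR, where 0.00654% of genes were called, or by DESeq2. At an unadjusted p under 0.05 there were 2 members, COL6A2 and EFEMP1, and 2452 genes. The log2 difference of TCC from PAC tissues was negative for all 8 members, from -1.35 ± 1.31 for SPARC (edgeR adjusted p = 0.645) to -4.77 ± 1.56 for EFEMP1 (0.199). Without Ln6.2, COL1A2 (-5.76, edgeR adjusted p = 0.00279) and COL6A2 (-4.76, 0.00476) passed. Tumor type goes largely with organ, sampling site and dog here, and these cannot be told apart. Of the 6 TCC tissues 4 are bladder tumors, whereas the PAC tissues are of prostate origin. Ln4.2 and Ln4.3, both of dog 4, and Ln6.2 were sampled from lymph nodes. The paper reports lymphoid and connective tissue in Ln4.2 and Ln4.3, and nearly only tumor cells in B7. The part of tissue composition in this contrast was not tested.

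The collagen chains kept close proportions to one another across the tissues. Per kb of effective length, COL1A1 was 1.05 to 1.96 times COL1A2, with a median of 1.81, although the levels in CPM ranged over 278-fold for COL1A1 and 214-fold for COL1A2. COL6A1 was 1.69 to 2.77 times COL6A2, with a median of 2.29. COL3A1 stood to COL1A1 at 0.622 to 2.05, and this ratio was above 1 in P6.1, B8, B9 and B10 and below 1 in the others. COL6A1 stood to COL1A1 at 0.151 to 0.633.

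The 3 members that are not collagens varied more against COL1A1 in CPM per kb. DCN ranged from 0.0842 times COL1A1 (Ln4.3) to 7.66 times (P6.1), over 91.0-fold. SPARC ranged from 0.352 times (P2) to 5.59 times (B10), and EFEMP1 from 0.00207 times (B7) to 0.316 times (B10). By level per kb, COL1A1 was the highest member in P2, Ln4.2, Ln4.3, Ln6.2 and B7, SPARC in B8, B9 and B10, and DCN in P6.1. In B7 the top 3 lay close together, with COL1A1 at 35.1, SPARC at 32.4 and COL3A1 at 30.3 CPM per kb.

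The line from P6.1 shared its leading member. In P6.1, DCN was at 1017 CPM per kb, SPARC at 516 and COL3A1 at 147. In TCC1509, DCN was at 323 CPM per kb, COL3A1 at 120 and SPARC at 30.0, and the next member, COL1A1, was at 0.0539. In TCC1506 COL3A1 led at 12.1 CPM per kb, ahead of COL1A1 at 7.33 and SPARC at 1.21, and in its tissue B7 COL1A1 led.

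**Figure D4:**
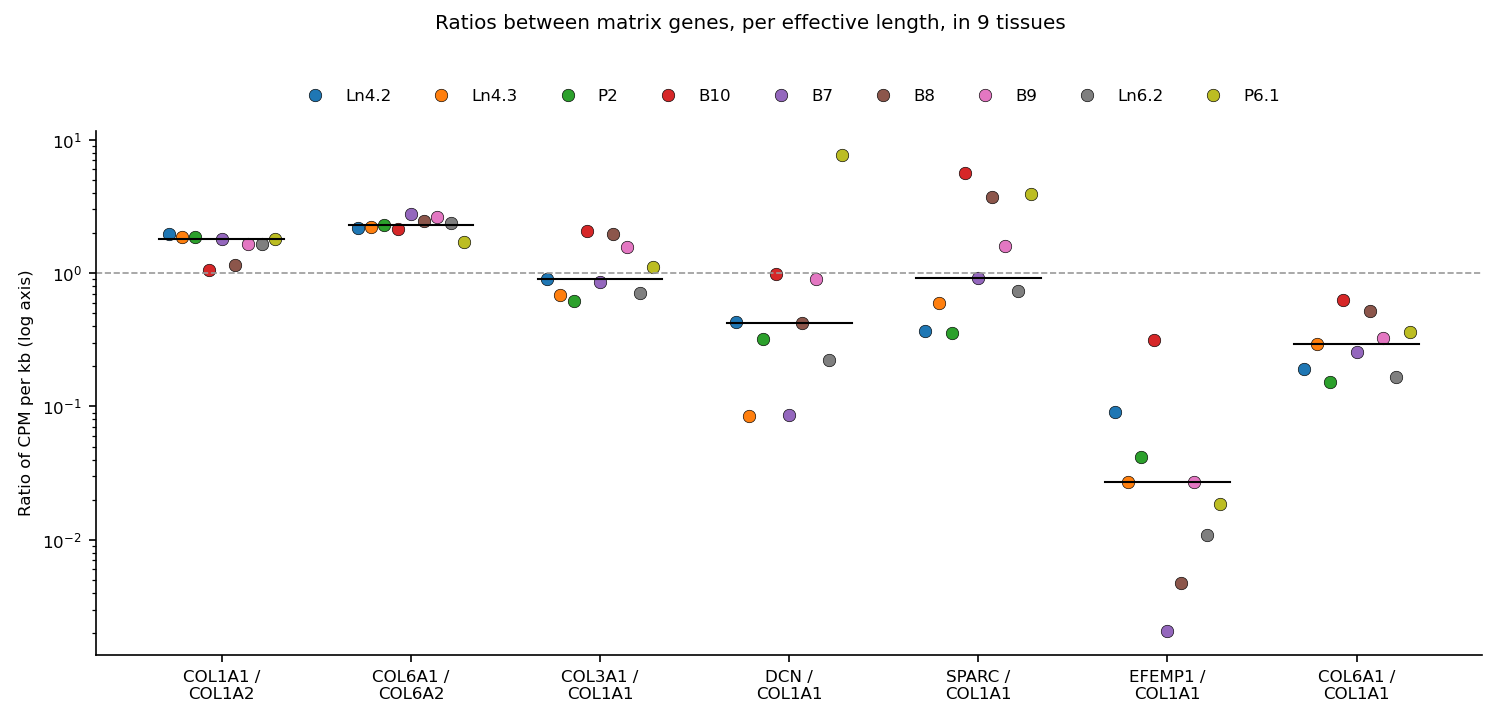
Ratios of CPM per kb of effective length between pairs of members on a log axis in the 9 tissues, with a color per tissue, a black bar at the median and a dashed rule at equal levels. The ratios within type I and within type VI collagen stay within 1.05 to 2.77, whereas DCN over COL1A1 spreads from 0.0842 to 7.66 with P6.1 on top, and EFEMP1 over COL1A1 spreads over 153-fold.

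Over the 9 tissues the levels of the members, as log2(CPM + 0.5), varied together. Among the 5 collagen genes Pearson's r lay between 0.98 and 1.00. DCN correlated with the collagens at 0.82 to 0.87, EFEMP1 at 0.89 to 0.92 and SPARC at 0.92 to 0.96. These are descriptions over 9 points that share library depth scaling, and dogs 4 and 6 gave 2 tissues each. Across the same tissues the summed members correlated at -0.88 with the summed epithelial markers, at 0.92 with ACTA2, at 0.83 with the endothelial sum and at 0.80 with the leukocyte sum. P2 had the highest member, ACTA2, endothelial and leukocyte sums and the lowest epithelial sum, and B7 had the lowest member, ACTA2, endothelial and leukocyte sums. The part of tissue composition in the member levels was not tested.

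The genes outside the members whose level over the 9 tissues was most like their mean were ANGPTL2 (r = 0.990), ADGRA2 (0.987), PCOLCE (0.985), ECM2 (0.985) and MXRA8 (0.978). Only the 1068 genes with a symbol among the study's top genes for drug resistance were ranked for this. Over all 15282 genes correlated, members included, the median r was -0.09 and the 95th percentile 0.859. Among these, 6 genes had a higher r than ANGPTL2 and 35 a higher r than MXRA8. ANGPTL2 is a secreted glycoprotein, ADGRA2 an adhesion receptor, PCOLCE an enhancer of collagen propeptide cleavage, and ECM2 and MXRA8 are matrix-associated proteins. Of the members, COL6A2 was closest to the mean of all 8 (r = 0.994) and DCN farthest (0.899).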

How the data were processed

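Gene-level expected counts of 124 sequencing lanes from 31 libraries were used as deposited. Per the labels and the study's methods, the authors sequenced NEBNext Ultra libraries, made reads with CASAVA and bcl2fastq 2.15.0.4, trimmed them with Trimmomatic 0.36, aligned them with STAR 2.5.3 to CanFam3.1 and estimated the expected counts with RSEM 1.3.0. RSEM divides reads shared by similar genes between them, which bears on collagen chains with few counts. Here lanes were summed to libraries and libraries to lines, as in the study, and rounded. Lines and tissues were paired by the dog and the original tissue that the labels name. Lanes of Adcarc0846 whose other labels disagreed were assigned by title.

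The 8 members, and lists of 82 other matrix, integrin and marker genes, were chosen with earlier results of these data known. The members and the 82 other genes are limited to those with an identifier among the study's top genes for drug resistance. Named beside the members are up to 3 called genes per list and direction with the largest change between lines and tissues, list genes called in a line that also had members called, and the 5 genes most like the mean of the members over the tissues. Tests used edgeR 4.0.16 (TMM, robust quasi-likelihood F test, Benjamini-Hochberg adjustment over all genes tested) in R 4.3.3, on genes averaging at least 10 counts, or with 10 counts in both lines or both tissues for the pairs. The SE is the log2 change over the square root of F and is approximate. The fits were run on simulated data with 200 genes changed 4-fold at a dispersion of 0.1. These settings do not resemble members at 0 counts in some lines, so nothing about the members is read from that run. DESeq2 1.42.0, other filters, blocks and left-out samples served as alternatives. Replicate libraries of a line differed beyond sampling noise, with a chi-square per gene of 25.7 to 175 over 20 pairs. Levels per kb used the mean effective length of each gene. RefSeq served only to see which genes neighbor each other. No sequence or coordinate of these genes was used here. Figures were drawn with matplotlib 3.10.9.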

Additional observations from a re-analysis of the deposited data

Results flagged for a closer look

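Of 16 sets of samples tried (8 members in 5 PAC lines and in 6 TCC tissues), 15 had a range above 0 (EFEMP1 was at 0 counts in all PAC lines), and 11 held a sample whose gap to its nearest neighbor was large for the range of its group by Dixon's test at the 95% level, which chance alone passes in about 1 in 20. In 7 of these the sample was the metastasis Ln6.2 among the 6 TCC tissues. These are members that vary together over the same tissues, so the 7 are not independent and their number is not to be read against 1 in 20. It stood at 16667 CPM for COL1A1, 12378 CPM for COL1A2, 12810 CPM for COL3A1, 1926 CPM for COL6A1, 1020 CPM for COL6A2, 3163 CPM for SPARC and 138 CPM for EFEMP1. On the log2 scale it passed for 3 of these, COL1A1, COL1A2 and COL3A1. DCN was the exception, with P6.1 of the same dog at 1318 CPM above the 1043 CPM of Ln6.2. The epithelial sum in Ln6.2 was 297 CPM, the lowest of the TCC tissues, and its part in these values was not tested.

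The other 4 were PAC lines. Metadcarc1511.3 stood apart for COL3A1 with 1.10 CPM (58 counts, but not on the log2 scale), and Adcarc0846 for COL6A1 with 1.74 CPM (66 counts). Adcarc1511.1 for COL6A2 with 0.0202 CPM and Adcarc1508 for DCN with 0.0360 CPM were set apart by 1 and 2 counts against 0 in the other PAC lines, which is within counting error.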

How the results depend on the processing

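No single-gene value that was recomputed changed direction. These were the members tested between lines and tissues, between the tissues and in both sets of pairs, COL1A1, COL3A1, DCN and SPARC between the lines, and the calls in TCC1506 and TCC1509; the difference of the line effect was recomputed as counts alone. Between lines and tissues, 7 or 8 members were called with each of the 17 samples left out, under the other normalization, filters and libraries and with 1 sample per dog (7, without DCN). There were 5 with the dog as a replicate block, 6 without tumor type in the model (COL3A1 and DCN lost, at -6.53 and -4.20, edgeR adjusted p = 0.0318 and 0.165) and 0 within the number series of the tissues, where fewer lines entered. Of 215 single-gene values in this comparison, 199 kept and 16 lost their call. DESeq2 called 4 members between TCC and PAC lines, 4 for the difference of the line effect and 5 in the TCC pairs, against 0 each by edgeR; the cause was not tested. Leaving out samples gave 0 to 2 members between TCC and PAC tissues (2 without Ln6.2), 0 to 0 between the lines, for the difference of the effect and in the TCC pairs, 7 to 7 in the PAC metastasis pairs and 6 to 6 over the lines. Without the block, 5 members were called in the PAC metastasis pairs (DCN and EFEMP1 lost). Deviations of same-numbered libraries of different lines had a median r of 0.153 over 71 pairs, from -0.239 to 0.797. Those of differently numbered libraries had a median of -0.0537 over 140 pairs, from -0.670 to 0.326. Whether libraries with the same replicate number share a batch was not tested, and a replicate block left 6 calls over the lines. All genes called lower in lines numbered 1911, 1014 under the filter of the study and 0 within the number series, and those lower in PAC metastasis pairs 1446, or 3354 with DESeq2. DESeq2 called 187 genes between TCC and PAC tissues, 338 between the lines, 201 for the difference of the effect and 486 in the TCC pairs, where edgeR called 1, 1, 1 and 0. With samples left out, edgeR called 0 to 51 genes between the tissues. Left-out samples moved single sizes: COL3A1 was at -10.71 without Metadcarc1511.3, COL6A1 at -14.01 without Adcarc0846, and SPARC in TCC1506 was at 5.34 without replicate 2. Levels below about 0.1 CPM rest on a few counts and order no lines.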
